A study of Mus musculus with 4 samples.

Results

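The genes described here are 10 genes of MHC class I antigen presentation, the pathway by which a cell displays fragments of its own proteins at its surface. They were taken by name from the deposited count table, and all 10 are among its 54842 gene identifiers. They comprise the heavy chain genes H2-K1 and H2-D1, the light chain gene B2m, the peptide transporter genes Tap1 and Tap2, the loading factor gene Tapbp, the immunoproteasome genes Psmb8, Psmb9 and Psmb10, and Nlrc5, which encodes a transactivator of class I genes. Sequencing covered total RNA, freed of ribosomal RNA, of untreated mouse embryonic fibroblasts (MEF cells), with 2 libraries of wild-type (wt) cells and 2 libraries of Top2β-null cells, which lack the DNA topoisomerase Top2β. The study asked whether Top2β affects transcription of the major satellite repeat. The class I genes were measured in the same libraries.

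The Top2β-null MEF cells came from Top2β-null mice and were a gift from other laboratories, so the origin of the cells and the genotype cannot be told apart. The strain of either cell line and its H2 alleles are not given in the sources used here. Nothing says that the 2 libraries of a genotype came from separate cultures, and p-values may measure technical spread alone. The libraries held between 133116830 and 149647278 counts. Top2b itself had 18259 and 18465 normalised counts (counts scaled to a common library size) in wt and 3879 and 3789 in Top2β-null cells, a log2 fold change of -2.26 ± 0.027 (SE), so Top2b transcripts were lower but not at 0. By Western blot, the study reported the Top2β protein to be absent from its Top2β-null MEF cells. Which exons the null allele lacks is not given in the sources used here. Of 12 fibroblast markers, all except Lum, a proteoglycan gene with at most 3.96 normalised counts, were well represented, and the structural genes Vim, Col1a1 and Col1a2 had between 112305 and 367618 normalised counts in each library. Within that list Dcn (log2 fold change 4.99), Thy1 (2.07), Pdgfrb (1.88) and Pdgfra (1.16) rose and Col1a1 (-1.38) and Col3a1 (-1.01) fell.

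Class I molecules are made of a polymorphic heavy chain and the invariant light chain β2-microglobulin, and they carry short peptides that CD8 T cells inspect. The proteasome cuts cytosolic proteins into peptides, TAP pumps the peptides into the endoplasmic reticulum, and tapasin with its partners loads them. In fibroblasts the pathway runs at a low level until interferon signalling, through IRF factors and NLRC5, raises the heavy chains, TAP and the inducible proteasome subunits together.

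Every one of the 10 genes was higher in both Top2β-null libraries than in either wt library. The share of all features that separate in this way was not counted, so the separation was not read as a result. For Tap1, Tap2, Psmb8 and Psmb9 it rests on at most 11 wt counts each. In bulk RNA, more cells expressing a gene and more RNA per cell cannot be told apart. Tap1, H2-K1, Nlrc5 and B2m passed all 3 cut-offs for a call, which asked for an adjusted p below 0.05 in edgeR's quasi-likelihood test, a log2 fold change beyond 1 in size and more than 100 normalised counts on average. These were 4 of 10 genes, while 5.27% of all 26566 features tested were called higher and 4.97% were called lower. Psmb8 was too low to be tested, and the adjusted p alone was passed, in the direction of higher in Top2β-null cells, by the other 9, against 32.5% of all features. Tap1, Tap2 and Psmb9 reached the minimum count for testing only through the Top2β-null libraries, so they had to differ once they were tested. The median log2 fold change of the 9 genes tested was 2.92, beside 0.0027 over all features tested. Over the 6 genes with at least 100 counts in every library, which leaves out Tap1, Tap2 and Psmb9, it was 1.02.

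**Figure D1:**
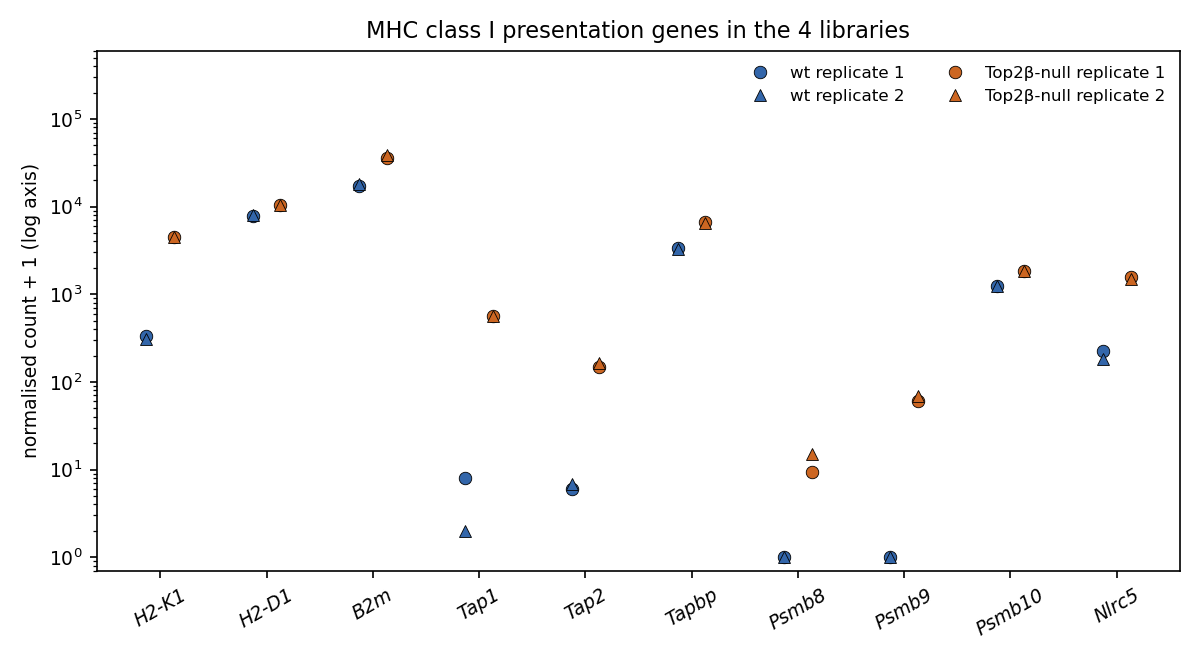
Normalised counts plus 1 (log axis) of the 10 genes in each library, with circles for replicate 1 and triangles for replicate 2. The wt points lie below the Top2β-null points for each gene, closest together for H2-D1 (7847 and 7918 against 10390 and 10528), and Psmb8 and Psmb9 were at 0 in wt.

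The promoters are shown first because the heavy chain and light chain genes are known to share control elements, while their changes in these data differed widely. RefSeq promoters on GRCm38.p6 were matched for 8 of the 10 genes, Tap2 and Nlrc5 being unmatched, and the 250 bases before the RefSeq gene start were searched on both strands. RefSeq starts can differ from the GENCODE gene positions given with each gene, and the windows of H2-D1, Tapbp, Psmb8 and Psmb9 lie within the GENCODE spans of those genes. The windows of H2-K1 (chr17:34000348-34000597, minus strand), H2-D1 (chr17:35262844-35263093, plus strand), B2m (chr2:122147437-122147686, plus strand) and Tap1 (chr17:34187306-34187555, plus strand) read 5′ to 3′ in the direction of the gene. Capitals mark matches to an IRF core (AANNGAAA), a kappa B motif (GGGNNTTCC), the core of the X2 box (TGACG) and a Y box (ATTGG), each on either strand.
H2-K1: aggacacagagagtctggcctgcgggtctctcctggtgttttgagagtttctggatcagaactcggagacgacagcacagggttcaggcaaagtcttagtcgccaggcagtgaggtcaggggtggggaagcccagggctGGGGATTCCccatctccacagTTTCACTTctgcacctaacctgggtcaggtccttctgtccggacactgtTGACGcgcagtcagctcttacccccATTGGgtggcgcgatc
H2-D1: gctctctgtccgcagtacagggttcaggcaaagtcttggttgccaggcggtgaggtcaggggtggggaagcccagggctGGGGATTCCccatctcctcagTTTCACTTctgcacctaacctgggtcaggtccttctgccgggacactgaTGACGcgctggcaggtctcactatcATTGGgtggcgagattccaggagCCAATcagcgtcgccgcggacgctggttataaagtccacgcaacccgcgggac
B2m: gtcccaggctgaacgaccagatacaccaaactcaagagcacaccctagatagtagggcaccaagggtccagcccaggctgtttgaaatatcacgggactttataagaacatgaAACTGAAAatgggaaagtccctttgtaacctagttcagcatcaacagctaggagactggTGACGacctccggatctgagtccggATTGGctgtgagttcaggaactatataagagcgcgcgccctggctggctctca
Tap1: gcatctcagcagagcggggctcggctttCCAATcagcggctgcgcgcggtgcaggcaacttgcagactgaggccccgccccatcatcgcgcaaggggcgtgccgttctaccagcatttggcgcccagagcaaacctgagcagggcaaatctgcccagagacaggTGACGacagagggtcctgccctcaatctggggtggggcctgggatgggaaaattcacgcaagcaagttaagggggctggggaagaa

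The H2-K1 and H2-D1 windows were 87.4% identical over 190 aligned bases and both held a kappa B motif, an IRF core, the X2 box core and a Y box in that order, H2-D1 with a further Y box after these. The X2 core was found in 5 of 8 windows (H2-K1, H2-D1, B2m, Tap1 and Psmb9), and in 17.9% of the 27025 promoters of the same length. The Y box was found in 6 of 8, those same 5 and Tapbp, against 34.5% of all promoters. The IRF core was found in H2-K1, H2-D1 and B2m, 3 of 8 against 21.6%, and the kappa B motif in H2-K1 and H2-D1, 2 of 8 against 4.88%. An ISRE core (GAAANNGAA), which overlaps the IRF core, was found in B2m alone, 1 of 8 against 7.16%, and a GAS motif (TTCNNNGAA) in Psmb8 alone, 1 of 8 against 7.18%. None of the 6 motifs was found in the Psmb10 window.

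In H2-K1, H2-D1 and B2m the Y box began exactly 25 bases after the X2 core on the same strand, a spacing looked at after the matches had been seen. Only 25 of the 27025 promoters (0.0925%) held that arrangement. Those 25 included these 3 genes and H2-M3, a further class I heavy chain gene of the H2 complex. None of the other 16 of them that were tested was called. Of all features tested, 5.27% were called higher and 4.97% lower, so so few genes cannot be set apart from other features. The 16 include Znrd1 (log2 fold change -0.70) and Trim26 (-0.26), which also lie in the H2 complex. They also include Slc8a3 (1.72), whose mean was too low for a call. The log2 fold changes of the 4 class I genes were 3.82 for H2-K1, 1.18 for H2-M3, 1.06 for B2m and 0.41 for H2-D1. Tap1 and Psmb9 are divergent neighbours whose starts lie 226 bases apart, so that 225 bases of their windows are the same sequence read from opposite strands. Their X2 core matches are the same site, as are their Y box matches, so the motif counts above are not of independent windows. A match describes letters in the reference, and the promoters of these cells were not sequenced here.

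Among the heavy chain genes, H2-K1 showed the larger change and H2-D1 the higher level. H2-K1 (ENSMUSG00000061232.15, chr17:33996017-34000347 on GRCm38, as for each gene here) had 329 and 310 normalised counts in wt and 4529 and 4484 in Top2β-null cells. Both Top2β-null values were far above both wt values, and the log2 fold change was 3.82 ± 0.053 (SE, edgeR, adjusted p = 3.34e-18). H2-D1 (ENSMUSG00000073411.11, chr17:35262730-35267499) had 7847 and 7918 in wt and 10390 and 10528 in Top2β-null cells, a log2 fold change of 0.41 ± 0.025 (SE, adjusted p = 5.3e-10) that missed the size cut-off. Per kilobase of exon the level of H2-K1 was 109 normalised counts in wt and 1534 in Top2β-null cells, while that of H2-D1 was 3057 and 4055. H2-K1 therefore made up 3.55% and 3.32% of the length-corrected sum of both genes in wt and 27.7% and 27.2% in Top2β-null cells. The log2 ratio of H2-K1 to H2-D1 was 3.41 higher in Top2β-null cells, with a pooled SD of 0.052. With 2 libraries against 2 the exact permutation test cannot go below p = 0.33, which this difference reached.

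Heavy chain genes differ between mouse strains in sequence and in number, and reads of one H2 gene or allele can be counted for a neighbour. To set aside a split among the listed genes, the counts of 29 class I heavy chain genes of the H2 complex were added up in each library. Reads of alleles that did not align, or that were counted for genes outside the list, are not covered by the sum. The sum was 12561 and 12713 normalised counts in wt and 20934 and 20816 in Top2β-null cells. It was 1.65-fold higher in Top2β-null cells, a log2 fold change of 0.72 ± 0.024 (SE, edgeR, adjusted p = 2.19e-13), and so below the size cut-off. H2-K1 supplied 2.62% and 2.44% of this sum in wt and 21.6% and 21.5% in Top2β-null cells, whereas H2-D1 supplied 62.5% and 62.3% and then 49.6% and 50.6%. The part of allele differences in the sum and in these shares was not tested.

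The other heavy chain genes moved in both directions. Of 31 listed, 27 were in the table, and 13 were tested. H2-Q4 (6.06 and 7.73 normalised counts in wt, 550 and 503 in Top2β-null cells, log2 fold change 6.23), H2-T22 (1372 and 1278, then 3308 and 3316, 1.32) and H2-M3 (1.18) were called higher. H2-T24, a non-classical heavy chain gene, was called lower, from 2085 and 2248 to 843 and 804 normalised counts. H2-Q6 was at 0 in wt and at 88.0 and 61.4 normalised counts in Top2β-null cells, and H2-Q5 at 0 and then at 13.5 and 24.8, both with means too low for a call. The median log2 fold change over the 13 was 1.18, but H2-Q4, H2-Q5, H2-Q6 and H2-Q7 reached the minimum count only through the Top2β-null libraries, and over the other 9 genes it was 0.62.

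B2m (ENSMUSG00000060802.8, chr2:122147686-122153083) encodes the light chain that every class I heavy chain needs to reach the surface. Its level was 17401 and 18249 normalised counts in wt and 35783 and 38297 in Top2β-null cells. The means were 17825 ± 599 and 37040 ± 1778 (SD, n = 2), and the groups did not overlap. The log2 fold change was 1.06 ± 0.033 (SE, adjusted p = 8.45e-14), just past the size cut-off. B2m was 2.08-fold higher beside 1.65-fold for the summed heavy chains, and the difference between these folds was not tested. Per kilobase of exon B2m was the highest of the 10 genes in both genotypes, at 20727 and 43069 normalised counts. B2m lies wholly within the annotated span of Patl2 on the opposite strand, for which the libraries hold only 10 to 20 counts.

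The transporter genes were barely detected in wt MEF cells. Tap1 (ENSMUSG00000037321.17, chr17:34187553-34197225), which encodes the first TAP subunit, had 7 counts and 1 count in wt against 548 and 571 in Top2β-null cells. In normalised counts these are 7.07 and 0.966 against 568 and 566. The Top2β-null libraries hardly differed from each other, and the wt values rest on 8 counts in all. The log2 fold change was 7.12 ± 0.235 (SE, adjusted p = 1.61e-13), and the ratio from counting alone was 143 with a 95% interval of 72.6 to 333. Without the first wt replicate the log2 fold change was 9.02 and without the second 6.30, so the size, but not the call, turns on a few wt reads. Tap2 (ENSMUSG00000024339.12, chr17:34203527-34216321), the partner subunit, had 5.05 and 5.80 normalised counts in wt and 146 and 163 in Top2β-null cells. Its log2 fold change was 4.80 ± 0.293 (SE, adjusted p = 4.48e-10), its counting ratio 28.5 (95% interval 15.7 to 57.8), and its mean of under 100 kept it from being called. Intervals from counting cover counting error alone.

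Tapbp (ENSMUSG00000024308.14, chr17:33915899-33929292) encodes tapasin, which bridges TAP and the empty class I molecule. It was already well expressed in wt, at 3413 and 3314 normalised counts, and had 6701 and 6491 in Top2β-null cells. The groups were well apart, but the log2 fold change of 0.97 ± 0.032 (SE, adjusted p = 1.56e-13) fell just short of the size cut-off. Scaled to total counts it was 1.04 and would be called. Tapbp shares 3422 bases of its span with Zbtb22 on the same strand, whose counts were 2892 and 3044 in wt and 2183 and 2377 in Top2β-null cells, lower where those of Tapbp were higher. The antisense gene Gm19412 overlaps Tapbp by 1207 bases and went from 472 and 458 counts in wt to 810 and 909 in Top2β-null cells, in the same direction as Tapbp.

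Of the 3 immunoproteasome subunits, which replace constitutive catalytic subunits when they are induced, 2 were not seen at all in wt. Psmb9 (ENSMUSG00000096727.2, chr17:34181987-34187764) had no count in either wt library and 57 and 69 counts in the Top2β-null libraries. Against a floor of 3 counts per library it was at least 21.5-fold higher in Top2β-null cells, with adjusted p = 6.37e-08 in edgeR and a mean too low for a call. Psmb8 (ENSMUSG00000024338.14, chr17:34197721-34201454) likewise had no count in wt and only 8 and 14 counts in Top2β-null cells. It was at least 3.74-fold higher against the same floor and was not tested. Psmb10 (ENSMUSG00000031897.9, chr8:105935735-105938444), by contrast, was expressed in both, with 1245 in each wt library and 1831 and 1848 normalised counts in the Top2β-null libraries. Its log2 fold change was 0.56 ± 0.048 (SE, adjusted p = 3.11e-08), below the size cut-off. Psmb9 overlaps Tap1 head to head by 212 bases, and the antisense gene Gm16156 spans Psmb10. The strand setting of the counting is not given in the sources used here.

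The 3 constitutive counterparts had negative fold changes, and Psmb6 and Psmb7 passed the cut-offs. Psmb6, which Psmb9 replaces, had 35193 and 35503 normalised counts in wt and 9857 and 10155 in Top2β-null cells and was called lower, with a log2 fold change of -1.82 ± 0.026 (SE). Psmb7, which Psmb10 replaces, fell from 12123 and 12647 to 5584 and 5895, a change of -1.11 ± 0.031. Nek6 overlaps Psmb7 by 6571 bases on the opposite strand. It went from 9229 and 9754 counts in wt to 5991 and 6145 in Top2β-null cells, in the same direction as Psmb7. Psmb5, which Psmb8 replaces, had a log2 fold change of -0.38 ± 0.029 and was not called. A processed copy, Psmb6-ps on chromosome X, had 913 and 1031 counts in wt and 1 and 3 in Top2β-null cells. Reads of Psmb6 and of this copy may have been shared, which was not tested.

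Within each library, the length-corrected log2 ratio of Psmb10 to Psmb7 was -2.28 and -2.34 in wt and -0.60 and -0.67 in Top2β-null cells. Psmb10 thus made up 17.1% and 16.5% of the pair in wt and 39.7% and 38.6% in Top2β-null cells, a 3.19-fold higher ratio. The difference of 1.67 compares with a pooled SD of 0.045, and the exact permutation p was 0.33, the smallest this design allows. Psmb9 made up 0.305% and 0.343% of its sum with Psmb6 in the Top2β-null libraries, and Psmb8 0.0483% and 0.0797% of its sum with Psmb5. Both ratios were above the wt floor, by at least 75.8-fold and at least 4.72-fold, but in these cells the constitutive transcripts of those 2 pairs still outnumbered the inducible ones by far.

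**Figure D2:**
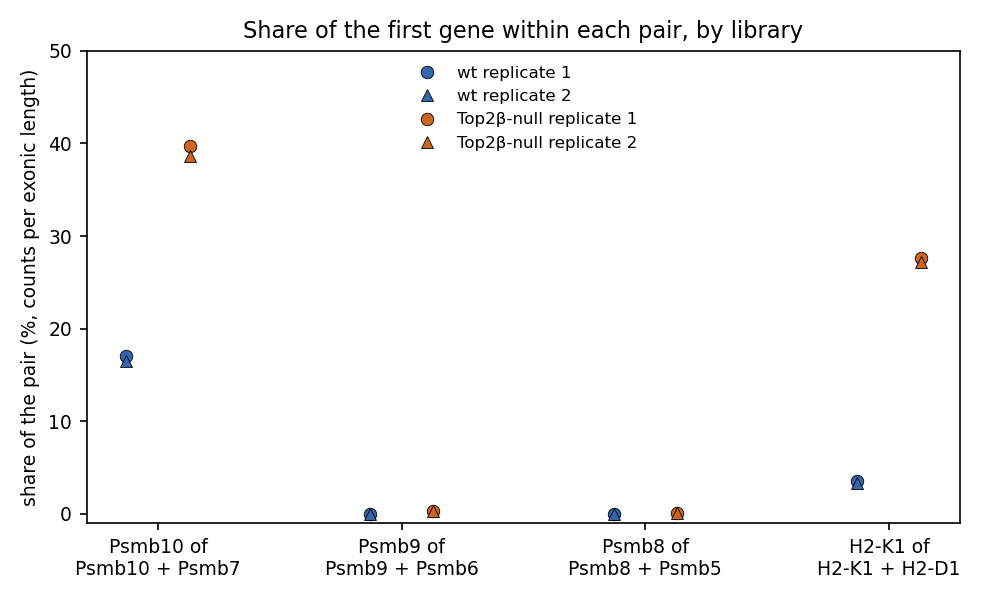
Share of the first gene within each pair in percent, from counts divided by exonic length, for each library. Psmb10 made up at most 17.1% of its pair in wt and at least 38.6% in Top2β-null cells, H2-K1 at most 3.55% and at least 27.2%, and Psmb9 and Psmb8 at most 0.343%.

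Nlrc5 (ENSMUSG00000074151.13, chr8:94434356-94527272) encodes the transactivator that binds the X and Y box complex of class I promoters. It had 227 and 180 normalised counts in wt and 1573 and 1508 in Top2β-null cells. The groups were far apart, with a log2 fold change of 2.92 ± 0.083 (SE, adjusted p = 2.45e-14). Ciita, the class II counterpart of Nlrc5, had 51.5 and 45.4 normalised counts in wt and 71.5 and 62.4 in Top2β-null cells and did not pass the adjusted p (log2 fold change 0.47, adjusted p = 0.0891). None of the 8 genes for the DNA-bound partners of NLRC5 (RFX, CREB/ATF1 and NF-Y subunits) was called by edgeR, 2 were higher and 4 lower at the adjusted p alone, and their median log2 fold change was -0.07. Rfx5 was at 0.44 and Atf1 at -0.62.

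Ordered by level per kilobase of exon, the genes in wt ran from B2m through H2-D1 (3057), Tapbp (927), Psmb10 (730), H2-K1 (109) and Nlrc5 (23.9) to Tap2 (1.43) and Tap1 (0.733), with Psmb8 and Psmb9 at 0. The order of Tap1 and Tap2 in wt rests on 8 and 11 counts and is not distinguishable. In Top2β-null cells H2-K1 (1534) passed Psmb10 (1079), while Nlrc5 was at 181, Tap1 at 103, Tap2 at 40.9, Psmb9 at 17.4 and Psmb8 at 3.28. Tap1, Tap2, Psmb9 and Psmb8 were the 4 lowest of the 10 in both genotypes.

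**Figure D3:**
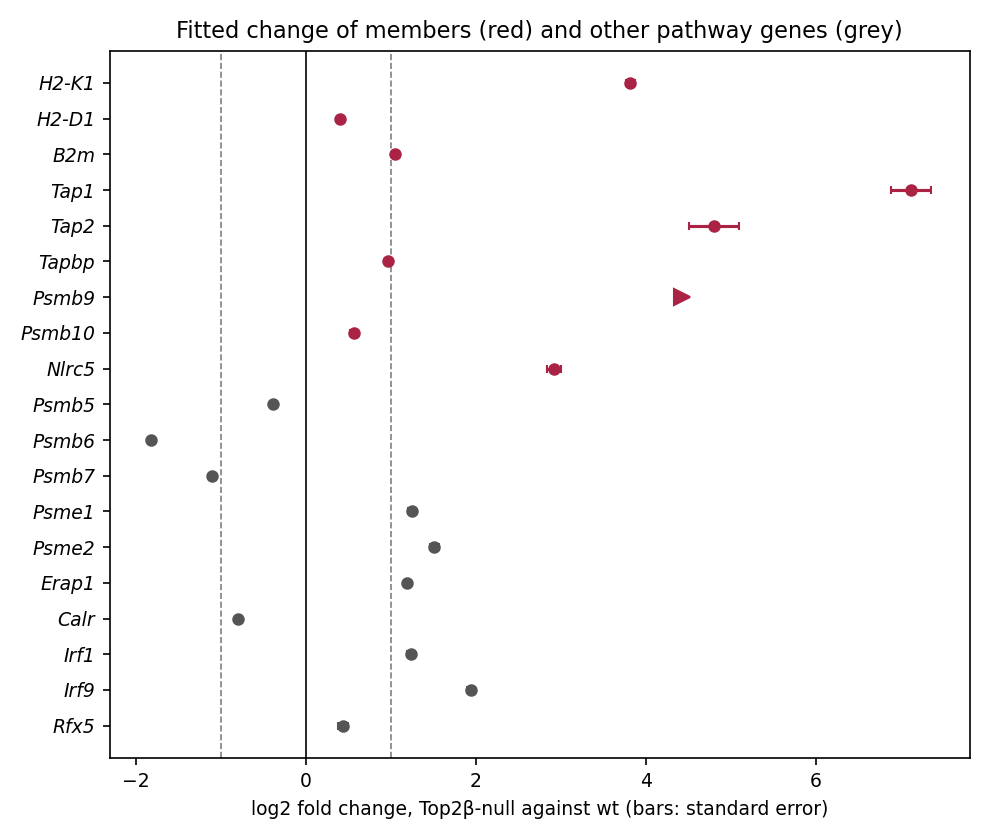
Fitted log2 fold change with its standard error for the members tested (red) and for other genes of the pathway (grey), with dashed lines at the size cut-off of 1 in each direction. The arrow for Psmb9 is its lower bound of 4.43, the members all lie above 0, and Psmb5, Psmb6, Psmb7 and Calr lie below it.

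Other steps of the pathway changed less evenly. The PA28 genes Psme1 (1304 and 1342 normalised counts in wt, 3172 and 3098 in Top2β-null cells, log2 fold change 1.24) and Psme2 (933 and 868, then 2645 and 2498, 1.51), whose products form a proteasome activator linked to antigen processing, were called higher. The third, nuclear PA28 gene, Psme3, was at -0.20. None of 12 other genes for the proteasome core and its assembly was called, although 2 were higher and 7 lower at the adjusted p alone, with a median of -0.20 and with Pomp, an assembly factor, at 0.71. Of 9 genes for trimming, loading and quality control, only Erap1 was called, higher at 1.19. At the adjusted p alone 4 of the 9 were higher and 4 lower, and their median was 0.06. ERAP1 trims peptides in the endoplasmic reticulum. Calr, the calreticulin of the loading complex, was at -0.80 with adjusted p = 4.25e-13 and was not called.

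Among 13 regulators of class I genes on the interferon side, 4 were called higher, namely Irf9 (log2 fold change 1.94), Irf7 (1.62), Irf1 (1.23) and Stat2 (1.15), and none was called lower. Irf9, which encodes a part of the factor that interferon activates, had 824 and 838 normalised counts in wt, and 3171 and 3225 in Top2β-null cells. The receptor gene Ifngr1 went the other way at -0.88 and was not called. The median over the 13 was 0.61, and 0.47 without Irf8, which reached the minimum count only through the Top2β-null libraries. None of 5 NF-kB genes was called, 4 were higher at the adjusted p alone, their median was 0.28, and Relb was at 0.65.

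**Figure D4:**
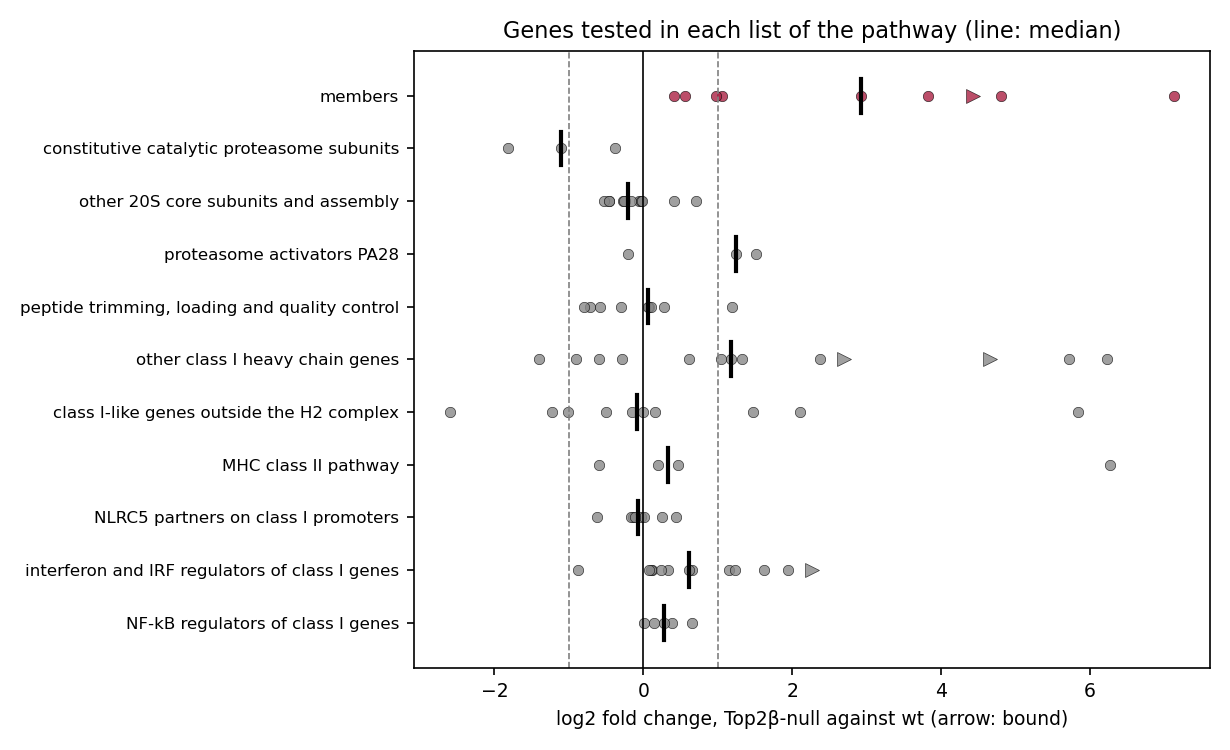
Log2 fold change of each gene tested, by list, with a black line at the median and arrows for genes with no count in wt, drawn at their lower bound. The members' median is 2.92, or 1.02 over the 6 with at least 100 counts in every library, and those of the PA28 genes, the interferon regulators and the constitutive catalytic subunits are 1.24, 0.61 (0.47 without Irf8) and -1.11.

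Class II genes, which interferon-γ can also raise in fibroblasts, were mostly near 0. Of 12 genes, 4 were tested and none was called, with 1 higher and 1 lower at the adjusted p alone. The higher gene, H2-DMb1, reached the minimum count only through the Top2β-null libraries. H2-Aa, H2-Ab1 and H2-Eb1 had at most 1 count in any library. H2-DMb1, a class II loading factor gene that lies beside Psmb9, was the exception in size, with 2.02 and 1.93 normalised counts in wt and 163 and 161 in Top2β-null cells, and its mean was below the cut-off. H2-DMa was at 0.20 and Cd74, the invariant chain gene, at -0.59, with 291 and 246 normalised counts in wt and 183 and 172 in Top2β-null cells.

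Class I-like genes outside the H2 complex moved in both directions. Ulbp1, which encodes a ligand of the receptor NKG2D, had 168 and 134 normalised counts in wt and 8506 and 8654 in Top2β-null cells, a log2 fold change of 5.83 ± 0.058 (SE, adjusted p = 8.51e-20). H60b, a further NKG2D ligand gene (2.11), and Mr1 (1.47), which presents vitamin metabolites, were also called higher. Raet1e, again a NKG2D ligand gene, was called lower at -2.60, as were Procr (-1.22) and Mill2 (-1.01). H60b lies within the annotated span of Raet1e on the same strand, so their counts may depend on each other, which was not tested. The median over the 10 class I-like genes tested was -0.08.

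By position, 7 of the 10 genes lie in the H2 complex on chromosome 17, Psmb10 and Nlrc5 on chromosome 8 and B2m on chromosome 2. In an interval from Tapbp to H2-M2, chosen after the values were seen, 148 tested genes were neither members nor class I heavy chain genes. None of these was called higher and 17 were called lower (11.5%), 125 had a negative fold change and their median was -0.52. Over all genes tested, 5.52% were called higher and 5.25% lower. On the rest of chromosome 17, 2.77% of 975 genes were called higher and 7.59% lower, 772 were negative, and the median was -0.43, the second lowest of 20 chromosomes. The median of chromosome 8, without its members, was 0.12 and that of chromosome 2 was -0.14. The 65 genes tested between Tap2 and H2-D1 had a median of -0.68, and 61 of them were negative. None of the 65 was called higher and 13 were called lower (20%). Their values include Tnxb at -2.89 and C4b, low in both genotypes, at 4.04. Beside Tap1, Tap2 and Psmb9, H2-DMb1 (6.27) and the antisense genes Gm20496 (4.37) and Gm15821 (3.88) had positive fold changes and means too low for a call. These genes and C4b reached the minimum count only through the Top2β-null libraries, so they had to differ once they were tested. Both antisense genes overlap Tap2, and reads may have been shared with it, which was not tested.

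**Figure D5:**
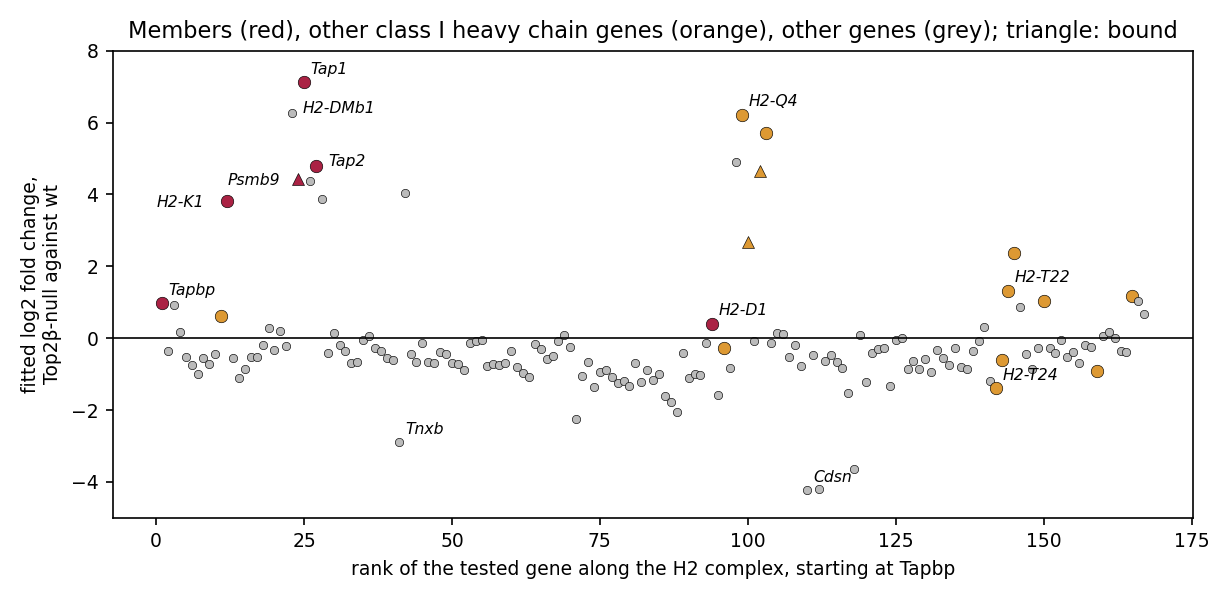
Log2 fold change against the rank of each gene tested along the H2 complex, with members in red, other class I heavy chain genes in orange and the rest in grey. Triangles are lower bounds for genes with no count in wt, and the points with the largest values are H2-K1 and the genes around Tap1 and Tap2, H2-Q4, H2-Q6 and H2-Q7 with their neighbour Gm11131, and C4b.

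Genes whose pattern over the 4 libraries lay closest to the mean centred log2 profile of the 9 members tested, among 16649 candidates, were Gm43621 (Euclidean distance 0.0422), Slco1a5 (0.0811), Shc2 (0.110), Cracr2a (0.134) and Mgst1 (0.150). With 4 libraries in 2 groups this ordering mostly ranks genes by a fold change near that of the members' mean.

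Immune cells express these genes strongly, so markers of leukocytes were read beside them. Of 18 markers, 9 were tested, none was called higher and Cd68 was called lower at -2.49. The summed level of the list was 2585 and 2627 normalised counts in wt and 1476 and 1497 in Top2β-null cells. That fall was carried by Cd68 (1641 and 1688, then 302 and 289), and without it the sum was 944 and 939 in wt and 1173 and 1207 in Top2β-null cells. At the adjusted p alone 5 of the 9 markers, Cd4, Fcer1g, Itgam, Itgax and Csf1r, were higher in Top2β-null cells and 1 was lower, but Cd4, Itgam and Itgax reached the minimum count only through the Top2β-null libraries, and 32.5% of all features were higher by that measure. Ptprc, which encodes the pan-leukocyte CD45, had at most 6.76 normalised counts in any library, Tyrobp and Adgre1 were at 0 in each library, and 10 of the 18 were under 10 normalised counts in Top2β-null cells. The abundant markers in the list besides Cd68 were Csf1r (740 and 767, then 962 and 978) and Coro1a (97.9 and 77.3, then 59.0 and 70.3). Itgam and Itgax were higher in Top2β-null cells, at 28.0 and 28.7 and at 11.4 and 17.8 normalised counts, from 1.01 and 0.966 and from 0. Summed endothelial markers were at 172 and 174 in wt and at 262 in each Top2β-null library, with Kdr called higher at 1.54. Kdr alone carried that rise, since the sum without it was 99.9 and 105 in wt and 59.0 and 57.4 in Top2β-null cells, and the other 4 markers tested had negative fold changes. Summed epithelial markers were at 73.7 and 72.4 and then at 22.8 and 25.8. The part of these markers in the levels of the class I genes was not tested.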

How the data were processed

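RNA-seq was measured in 4 libraries of MEF cells, 2 for each genotype. Per the file headers and values, the deposited table holds raw counts for genes and repeat families, not normalized. The authors used Trim Galore! on the reads, mapped them with STAR on mm10 while keeping multi-mapping reads, and ran TEtranscripts with Gencode gene models and RepeatMasker repeats. How such reads were shared, and the strand setting, are not given in the sources used here. Counts of near-identical H2 genes can therefore depend on each other.

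Of 54842 gene identifiers, 54495 matched GENCODE M21, the source of symbols, GRCm38 positions and exonic lengths. Groups and replicates came from the labels. Totals per library ran from 133116830 to 149647278. A chi-square test found replicates further apart than sampling noise allows (statistic over its degrees of freedom 3.65 for wt, 5.07 for Top2β-null), so no library was counted as a duplicate.

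Rows reaching 10 counts in 2 or more libraries (25085 genes and 1481 repeat families) were fitted with edgeR 4.0.16 in R 4.3.3, with TMM scaling and a quasi-likelihood test of genotype. P-values were adjusted by Benjamini-Hochberg over all 26566 features. Calls used the cut-offs of the study's methods: adjusted p under 0.05, log2 fold change beyond 1 in size, and over 100 normalized counts on average. The SE was derived from the log2 fold change and the F statistic (their ratio after taking the root of F). With all libraries of a group at 0, the fold is a lower bound against a floor of 3 counts per library. The edgeR and DESeq2 scripts were tested on simulated counts. Alternatives were DESeq2 1.42.0, other scalings, filters and cut-offs, a replicate block and leaving out libraries. Same-numbered replicates did not deviate together (correlation 0.0197 over 17952 features).

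The members and gene lists were chosen with earlier results of these data known. The genes named are the members, Top2b, Psmb5, Psmb6, Psmb7, Psme1 and Psme2, up to 3 called genes in each direction per list, tested class II genes, the 3 most abundant and any called marker per list, and the 5 nearest profiles. Irf1, Irf8, Stat2, Ifngr1, Psme3, Pomp, Calr, Rfx5, Atf1, Relb, H2-Q5, H2-Q6, H2-Q7, H2-Aa, H2-Ab1, H2-Eb1, Lum, Ptprc, Tyrobp, Adgre1, Itgam, Itgax, Cd4, Fcer1g, Znrd1, Trim26, Slc8a3, Tnxb, C4b and Gm11131, and the genes that overlap or copy a named gene, were chosen after their values were seen. H2-L, H2-Q8, H2-Q9, H2-T9, Raet1a, Raet1b and Raet1c were not analysed here, and 1 gene of the interferon list is not reported here.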

Additional observations from a re-analysis of the deposited data

How the results depend on the processing

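Across the alternatives with all 4 libraries (DESeq2, TMM factors from genes, scaling to total counts, no or a stricter count filter, the replicate block), the log2 fold changes of the 9 members tested kept their direction wherever they could be fitted (Tap1, Tap2 and Psmb9 could not be under the stricter filter), and leaving out any 1 library turned none of them. Psmb8 was left out of this comparison. Of all features, 5.27% were called higher in the main fit, 5.70% when scaled to total counts and 5.02% with the stricter filter. The number of members called was 4, but 5 when scaled to total counts and 3 of the 6 tested with the stricter filter. With the adjusted p as the only cut-off it was 9, when the log2 fold change was tested against 1 it was 3, and with a library left out it ran from 4 to 5. The fit with the replicate block called 4 members, with a median of 2.92, and changed no call. The median log2 fold change was 2.99 scaled to total counts, 3.39 without a filter, which adds Psmb8, and 1.02 with at least 100 counts in every library, which leaves 6 members and drops Tap1, Tap2, Psmb8 and Psmb9. With a library left out it ran from 2.76 to 3.10. Tapbp passed the size cut-off only when scaled to total counts, at 1.04, and Tap2 passed the cut-off on mean counts when a wt library was left out. The summed heavy chains were at 0.93 when only the H2-K, H2-D and H2-Q genes were added. Depth limits Psmb8, Psmb9, Tap1 and Tap2, which rest on at most 11 wt counts each. The log2 ratio of the summed leukocyte markers was -0.81 and, in an alternative chosen after seeing the data, 0.34 without Cd68. That of the endothelial markers was 0.60 and, likewise, -0.82 without Kdr.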
